A study of Caenorhabditis elegans with 4 samples.

Results

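The chromodomain protein MRG-1, the worm relative of human MRG15, binds chromatin together with other proteins. The 6 genes described here encode known or likely partners of it: sin-3, hda-3, ogt-1, athp-1, set-26 and set-9. They were chosen by name from 19971 protein-coding genes on the 6 chromosomes, and all 6 were found in the gene table. The question was how MRG-1 itself lies over the genes of its partners. The peaks came from chromatin immunoprecipitation and sequencing (ChIP-seq) of whole adult Caenorhabditis elegans. The 2 MRG-1 ChIP samples were made with an affinity-purified rabbit polyclonal antibody, and 2 input samples of genomic DNA without immunoprecipitation carry no values here. All 4 samples came from fem-2(b245) hermaphrodites at 20 °C. They are labelled as young adults with a germline, whereas the growth protocol describes gravid adults. Since every sample carries the fem-2 allele and no other genotype was included, no comparison between genotypes is possible. Whole animals were used, so a peak does not tell germline from body cells.

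MRG15 proteins read methylated histone H3 through their chromodomain and are found in complexes that remove or add acetyl groups on histones. In the SIN3 complex a large scaffold protein holds a histone deacetylase, which takes acetyl groups off histone tails and is usually linked to lower transcription. SIN-3 is that scaffold, and HDA-3 is a class I histone deacetylase. OGT-1 attaches the sugar N-acetylglucosamine to nuclear and cytoplasmic proteins, ATHP-1 carries AT hooks and a PHD finger, and SET-26 and SET-9 are near-identical proteins with a PHD finger and a SET domain. In worms MRG-1 is best known from work on germ cells.

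Peak lists were available for replicate 1 (2769 peaks over 16.7 Mb), replicate 2 (3895 peaks over 13.1 Mb) and the series as a whole (12147 peaks over 14.8 Mb). They hold no read counts, so the depth behind a peak is unknown, and no background level from the input can be set beside the values. Peak positions are on WormBase WS220 and gene spans on WBcel235. These builds were taken to differ by about 200 bp at most, so a distance between a peak edge and a gene end is good only to about that size. The gene table gives no strand, so gene ends are named lower and upper by coordinate. Nothing in the labels tells whether separate cultures were used. An SD therefore covers the spread between these 2 samples, which may be technical.

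MRG-1 peaks lay over 5 of the 6 partner genes in replicate 1, where 30.2% of all protein-coding genes had at least 1 bp under a peak. In replicate 2 they lay over all 6, against 28.1% of all genes, and in the series-wide list over all 6, against 32.7%. With a peak required in each replicate, 5 of the 6 had one, against 24.4% of all genes. At least 50% of the span was covered in 5 of the 6 in replicate 1 and 5 in replicate 2, against 22.7% and 20.1% of all genes. In 4 of the 6 it was covered to that share in each replicate, against 3397 of all 19971 protein-coding genes. The 6 partner genes are longer than most: hda-3, the shortest, spans 4929 bp, and the median over all genes is 2006 bp. Among the 3221 protein-coding genes at least as long as hda-3, 41.3% had a peak in replicate 1, 38.3% in replicate 2 and 34.3% in each, and 10.4% were covered to at least 50% in each. On the chromosomes that hold the 6 genes, the share with a peak in each replicate was 39.5% on I, 39.8% on III and 27.1% on IV. On average, 76.2% ± 2.77 of a partner gene's span was under peaks, against 21.8% ± 2.05 for all protein-coding genes (SD, n = 2 replicates each). This SD is that of the mean over the genes and hides opposite changes in single genes. Coverage was higher in replicate 2 for sin-3 and higher in replicate 1 for hda-3, ogt-1 and athp-1. The part covered in both replicates averaged 66.2% of a partner gene's span, against 17.2% over all protein-coding genes. By chromosome, the mean coverage of all protein-coding genes was 36.1% in replicate 1 and 33.5% in replicate 2 on I. It was 37.2% and 36.5% on III, and 26.2% and 22.2% on IV. The median coverage of a partner gene was 88.9% in replicate 1 and 85.0% in replicate 2, and the median over all genes was 0% in both lists. No test was made of these differences, since the 6 genes were chosen with earlier results of the series known.

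**Figure D1:**
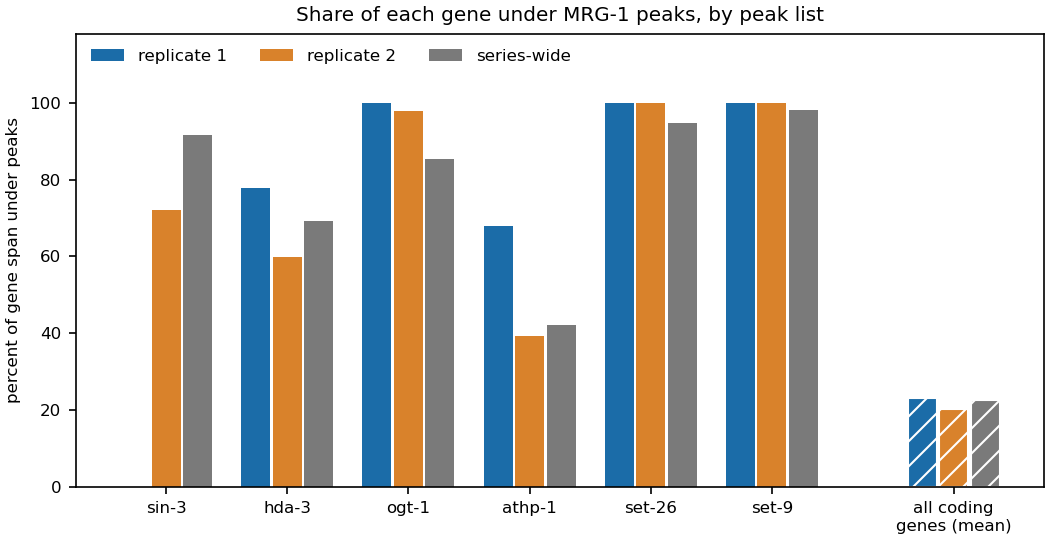
Percent of each gene's span under MRG-1 peaks, with 1 bar for replicate 1, replicate 2 and the series-wide list, and hatched bars for the mean over 19971 protein-coding genes. The set-26 and set-9 bars reach 100% in both replicates, sin-3 has no replicate 1 bar, and the mean over all genes lies between 20.3% and 23.2%.

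The 6 genes fell into different arrangements. In each replicate the spans of set-26 and set-9 each lay wholly under 1 peak that stood alone. Series-wide, 3 peaks lay over set-26 and 2 over set-9, with small gaps. Those of ogt-1, hda-3 and sin-3 lay in or at the edge of peak regions shared with several neighbours. The athp-1 gene was covered near its ends and bare over much of its middle.

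**Figure D2:**
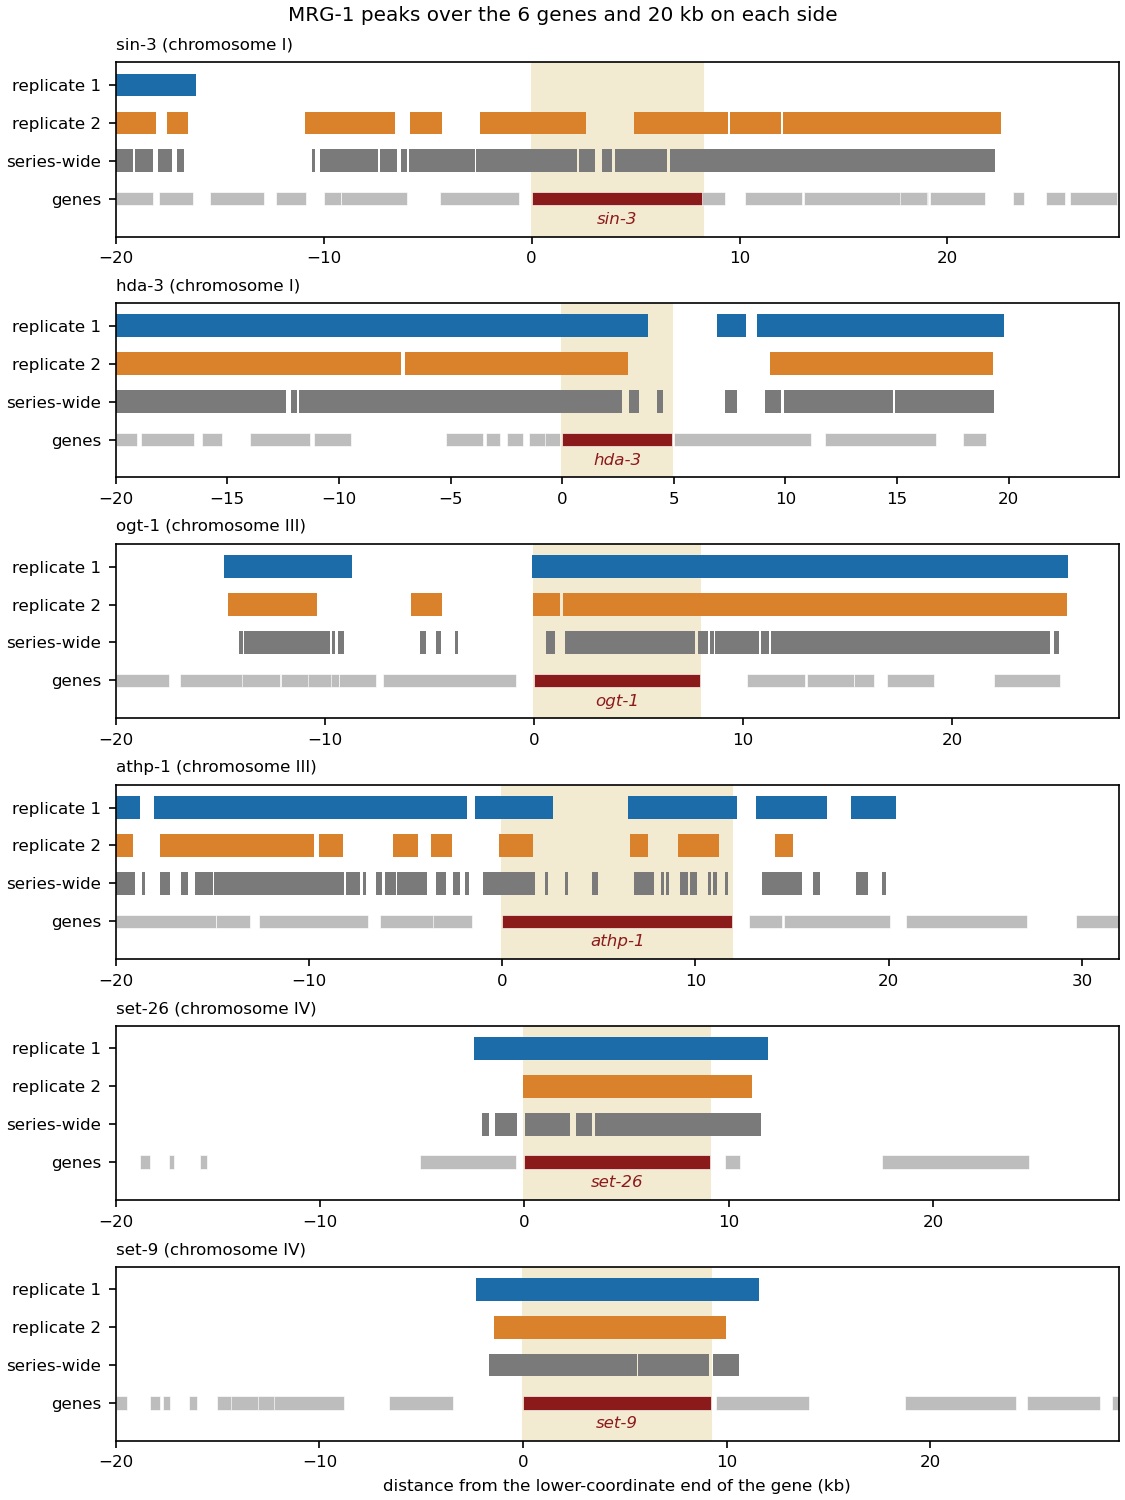
Peaks over each gene (dark red, shaded) and 20 kb on either side, in kb from the gene's lower end, with replicate 1 in blue, replicate 2 in orange, the series-wide list in dark grey and other protein-coding genes in light grey. In each replicate the peak over set-26 or set-9 spans the gene and runs at most 2.9 kb past either end. Peaks of hda-3 and ogt-1 run past several neighbours.

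sin-3, which encodes the scaffold of the deacetylase complex, is 8236 bp long and lies on chromosome I. None of its span was under a peak in replicate 1, 72.2% was in replicate 2 and 91.6% series-wide. The mean over both replicates, 36.1% ± 51.0 (SD, n = 2), therefore describes neither sample. In replicate 2 the gene was met by 2 peaks. The first, at chrI:8414315-8419455, began 2.5 kb below the lower end and covered 2640 bp of the gene. The second, at chrI:8421747-8426269, covered 3305 bp of the upper part and ran 1.2 kb past the upper end. They left 2291 bp of the gene bare between them, and the middle of the gene was covered to 20.4%, against 96.2% of the lower part and 100% of the upper part when the span is cut into 3 equal lengths. The deposited scores of these peaks, 1396.67 and 1085.09, stood at percentiles 76.9 and 71.9 of the replicate 2 list. A score is the authors' own value and orders peaks within its list only. In the series-wide list, 5 peaks covered the same span with gaps of 69 to 351 bp. The strongest of them, at chrI:8423453-8439093, was 15641 bp wide, the 21st widest of that list, with a score at percentile 93.6.

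The absence of sin-3 from replicate 1 was shared by its neighbours. Replicate 1 had no peak over 83.3 kb, at chrI:8400656-8483976, which reaches 16.2 kb below the lower end of sin-3 and 67.2 kb above it. Of the 23 protein-coding genes wholly inside, 10 had a replicate 2 peak and 9 a series-wide peak. These 9 formed 1 block around sin-3. lin-28, an RNA-binding regulator of developmental timing, was covered to 82.1% in replicate 2. Next to sin-3, F02E9.7 on the lower side was covered to 52.1% in that list, and F02E9.5 and F02E9.10 on the upper side to 100% and 97.7%. dpt-1 was covered to 100%, and so was sod-2, a mitochondrial superoxide dismutase. Replicate 2 peaks took up 34.3% of the whole stretch. By length, this stretch ranked 261st among the peak-free stretches of replicate 1 on all chromosomes, and 22nd of 606 on chromosome I. The median peak-free stretch of replicate 1 was 11364 bp. Among the 795 peak-free stretches of at least 30 kb, the one at sin-3 ranked 33rd by how much of it replicate 2 covered. Over all protein-coding genes, 583 of the 4005 genes covered to at least 50% in replicate 2 (14.6%) had no replicate 1 peak. The cause of the difference between replicates was not tested.

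**Figure D3:**
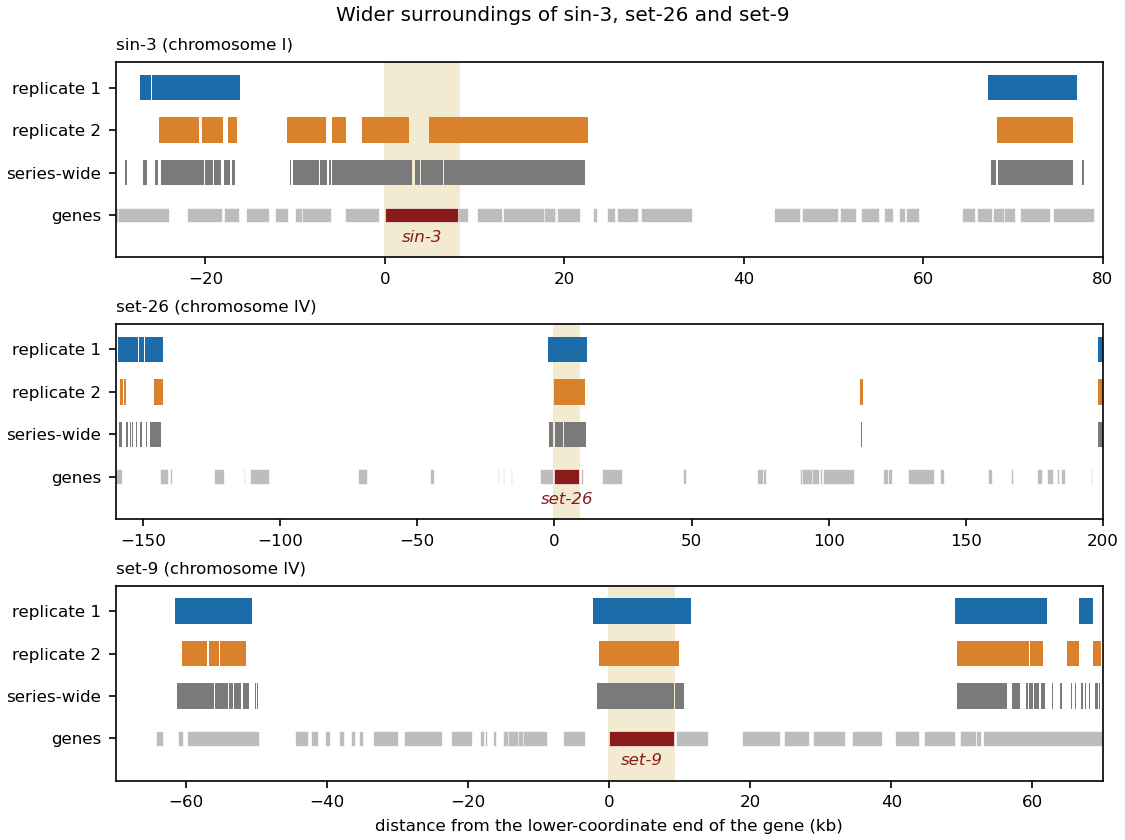
Peaks over a wider region around sin-3, set-26 and set-9, in kb from each gene's lower end, with lists and genes coloured as in the close-up maps. Replicate 1 has no peak over sin-3 or its neighbours while the other lists do, and the peaks over set-26 and set-9 stand far from the next ones in both replicates. In the series-wide list this holds after peaks up to 1 kb apart are joined.

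hda-3, which encodes the deacetylase, is 4929 bp long and also lies on chromosome I. It was covered to 77.8% in replicate 1, 59.7% in replicate 2 and 69.2% series-wide, a replicate mean of 68.8% ± 12.7 (SD, n = 2). With only the higher-scoring 50% of peaks in each list, that mean was 29.9%, and replicate 1 had no peak over the gene. All of the replicate 2 coverage lay within that of replicate 1. The covered part was the lower end of the gene, which formed the upper edge of a long peak region. In replicate 1 this was 1 peak of 25343 bp at chrI:11891281-11916623, the 19th widest of its list, with a score at percentile only 39.5. In replicate 2 it was 2 peaks separated by 0.2 kb, together 23.3 kb, and the nearer one, at chrI:11905771-11915735, scored at percentile 55.9. The upper edge fell 3.8 kb into the gene in replicate 1 and 2.9 kb in replicate 2. The lower part of the gene was covered to 100% in both replicates, while its upper part was covered to 33.3% by replicate 1 peaks and to 0% by replicate 2 peaks. The 1 kb above the gene was bare in all 3 lists.

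The region that ends in hda-3 reached over 10 other protein-coding genes in each list. The nearest, mag-1, codes for a protein of the exon junction complex, and ubc-12 codes for a NEDD8-conjugating enzyme. Both were covered to 100% in all 3 lists. On the other side of hda-3, fdps-1, a gene of the isoprenoid pathway, was covered to 60.2% by replicate 1 peaks and to 29.5% by replicate 2 peaks. The next gene, wve-1, was covered to 100% in both. A bare stretch of 3.1 kb in replicate 1 and 6.4 kb in replicate 2 thus separated the hda-3 region from the next peak above it.

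ogt-1, which encodes the O-linked N-acetylglucosamine transferase, is 7956 bp long and lies on chromosome III. It was covered to 100% in replicate 1, 97.8% in replicate 2 and 85.4% series-wide, a replicate mean of 98.9% ± 1.58 (SD, n = 2). With only the higher-scoring 50% of peaks it was 22.0%, and replicate 1 again had no peak over the gene. With all peaks, the mean was higher than that of 88.4% of all protein-coding genes and of 98.0% of those at least as long as hda-3. Among protein-coding genes of chromosome III it was higher than that of 81.3%. The gene lay at the lower edge of a peak region. Replicate 1 had 1 peak of 25641 bp, at chrIII:7145748-7171388, the 17th widest of its list, with a score at percentile 44.2. Replicate 2 had 3 peaks with gaps of 156 and 22 bp, which together spanned chrIII:7145775-7171319. The outer edges of the region differed between the replicates by 27 bp at the lower side and 69 bp at the upper side, compared with 1140 and 888 bp for the region at hda-3. Both lower edges fell within 0.1 kb of the gene's lower end, less than the uncertainty between the builds. In the series-wide list the first peak began 0.6 kb inside the gene.

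Peak coverage changed sharply at the lower end of ogt-1. The 1 kb below it was covered to 9.40% in replicate 1, 6.70% in replicate 2 and 0% series-wide, and the 1 kb above the upper end to 100%, 100% and 81.8%. The neighbour below, glr-2, encodes a glutamate receptor subunit. It was covered to 0% in replicate 1, 23.4% in replicate 2 and 10.6% series-wide. B0280.11, beyond it, was covered to 37.2% by replicate 1 peaks and to 0% by replicate 2 peaks. The neighbours above were nuo-4, which encodes a subunit of mitochondrial complex I, and rnp-7, which encodes a protein of the U1 spliceosomal particle. Both were covered to 100% in both replicates. The region took in 6 protein-coding genes in all, from ogt-1 to acs-4.

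athp-1, the gene of the AT-hook and PHD-finger protein, is the longest of the 6 at 11907 bp and lies on chromosome III. It was covered to 67.8% in replicate 1, 39.4% in replicate 2 and 42.0% series-wide, a replicate mean of 53.6% ± 20.1 (SD, n = 2). That mean was 26.8% with only the higher-scoring 50% of peaks. Every base covered in replicate 2 was also covered in replicate 1. The peaks lay in separate places. In replicate 1, chrIII:10880340-10884420 covered the lower end and chrIII:10888253-10893893 the upper end, with 3832 bp of the gene bare between them. In replicate 2, chrIII:10881626-10883373 covered the lower end, and the next 4998 bp were bare. Beyond them, chrIII:10888372-10889334 lay in the middle part of the gene and chrIII:10890869-10892988 in the upper part. The strongest series-wide peak over the gene, at chrIII:10880760-10883460, was also at the lower end, with a score at percentile 95.3. The other 11 series-wide peaks over the gene were 1029 bp wide or less. By equal parts, the middle of the gene was covered to 36.6% by replicate 1 peaks and to 24.3% by replicate 2 peaks, less than the lower part (66.9% and 40.5%) and the upper part (100% and 53.4%).

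The surroundings of athp-1 were covered more in replicate 1 than in replicate 2. The 10 kb below it were covered to 96.1% by replicate 1 peaks and to 40.2% by replicate 2 peaks, and the 10 kb above to 62.8% and 9.14%. C44B9.3 and C44B9.2, on the lower side, were covered to 88.5% and 100% in replicate 1 and to 49.0% and 51.4% in replicate 2. On the upper side, com-1, a gene needed in meiotic double-strand break repair, was covered to 77.5% by replicate 1 peaks and to 8.13% by replicate 2 peaks. The F-box gene fbxb-87 was covered to 79.2% by replicate 1 peaks and to 20.9% by replicate 2 peaks. Over the whole lists, the median peak was 4277 bp wide in replicate 1 and 2163 bp in replicate 2. Mean coverage of genes at least as long as hda-3 was likewise higher in replicate 1, at 21.8% against 15.6%.

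**Figure D4:**
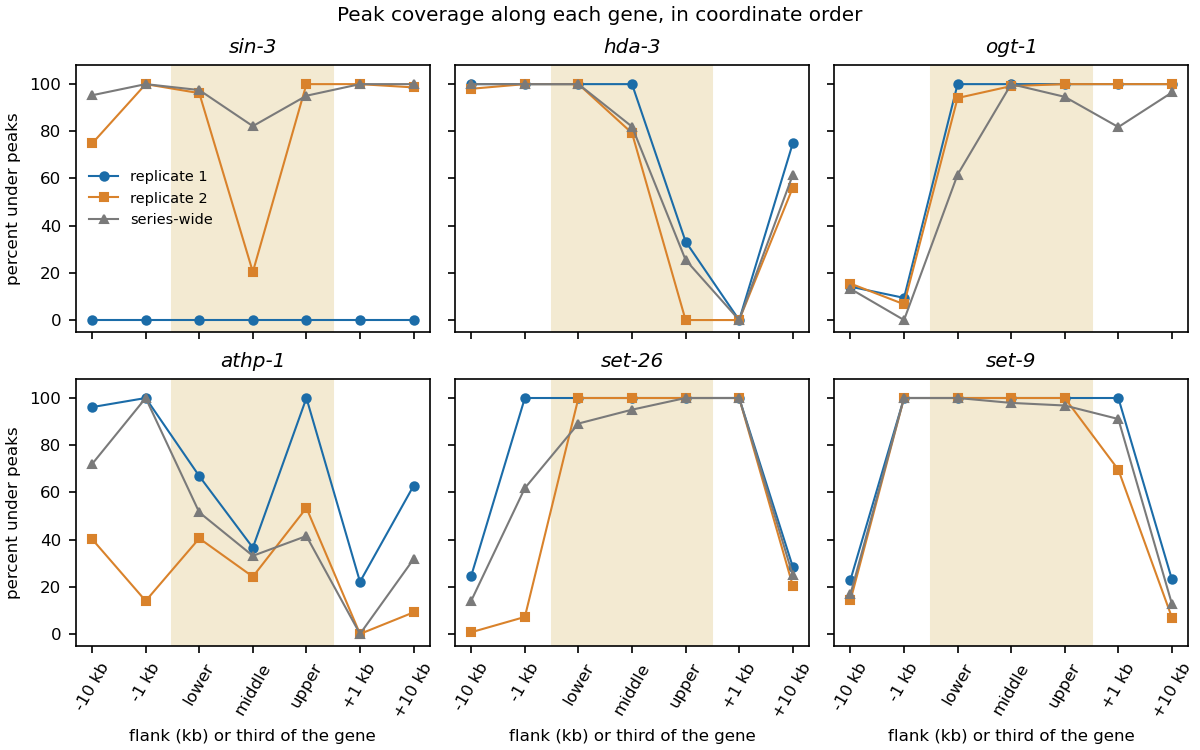
Percent of bases under peaks in the 10 kb and 1 kb flanks and in the lower, middle and upper parts of each gene (shaded), in coordinate order, for the 3 lists. Lines join values of a list. Coverage falls within hda-3, rises at the lower end of ogt-1, dips in the middle of athp-1, and in set-26 and set-9 is high over the gene and low in the 10 kb flanks.

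set-26 and set-9 are paralogs on chromosome IV, 9093 and 9245 bp long. The proteins they encode are known to bind chromatin at methylated histone H3 and to act in the germline. Both genes were covered to 100% in both replicates, and to 94.7% (set-26) and 98.2% (set-9) in the series-wide list. Over all protein-coding genes, 17.8% were wholly covered in replicate 1 and 12.9% in replicate 2. When full coverage was required in each replicate, 44 of the 3221 genes at least as long as hda-3 (1.37%) met it, set-26 and set-9 among them. Because the copies are so alike in sequence, reads can be shared between them, and how such reads were placed is not given in the sources used here. Their values are therefore not independent of each other.

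At set-26, the replicate 1 peak at chrIV:16644321-16658734 was 14414 bp wide, and the replicate 2 peak at chrIV:16646719-16657932 was 11214 bp wide. Their scores stood at rank 20 of 2769 peaks in replicate 1 and rank 608 of 3895 in replicate 2. The replicate 1 score, 3155.67, lay only a little above 3100, a score that 554 peaks of that list shared, so its rank separates it little from those peaks. The series-wide peak at chrIV:16650242-16658378, which covered 5642 bp of the gene and ran past its upper end, had a score of 67.14, the 2nd highest of all 12147 peaks. The lower edge differed between replicates by 2398 bp. It lay 2.5 kb below the gene in replicate 1 and 0.1 kb below it in replicate 2, so that Y51H4A.13, the neighbour on that side, was covered to 43.7% by replicate 1 peaks and to 0% by replicate 2 peaks. On the upper side both peaks ran 2.0 to 2.9 kb past the gene and covered tsr-2, a neighbour of 747 bp, to 100%. The next genes out, fipr-27 below and sta-1 above, had no peak in any list.

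At set-9, the replicate 1 peak at chrIV:4305606-4319454 was 13849 bp wide and the replicate 2 peak at chrIV:4306473-4317836 was 11364 bp wide. Their scores stood at percentiles 65.9 and 77.0. In the series-wide list, chrIV:4306213-4313471 covered 5576 bp of the gene with a score at percentile 98.0, and 2 smaller peaks followed, 1 of them above the gene. The neighbour below, lgc-22, a gene of the ligand-gated ion channel family, had no peak in any list, nor had F15E6.3 beyond it. Y24D9B.1, 0.2 kb above set-9, was covered to 45.9% by replicate 1 peaks and to 10.5% by replicate 2 peaks. The TRP channel gene trpl-2, next above, had no peak in any list.

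Both peaks stood alone in each replicate. In the series-wide list the next peak was 0.41 kb below set-26 and 0.19 kb above set-9. After joining peaks with gaps of up to 1 kb, the set-26 region was followed by bare stretches of 140 kb below and 186 kb above in replicate 1, and of 143 and 100.2 kb in replicate 2. By the shorter of its 2 bare stretches, it ranked 2nd of 604 regions of at least 10 kb in replicate 1, 3rd of 354 in replicate 2 and 2nd of 544 series-wide. The set-9 region had bare stretches of 48.4 and 37.4 kb in replicate 1 and 50.1 and 39.4 kb in replicate 2, and ranked 41st, 16th and 18th. The median shorter stretch of such regions was 8.08 kb in replicate 1 and 5.24 kb in replicate 2. By the same measure hda-3 had 3.12 kb in replicate 1 and 6.38 kb in replicate 2, and ogt-1 had 5.76 and 4.35 kb. Few protein-coding genes lie near set-26, and 131 piRNA genes were listed within 20 kb of it, against 6 for set-9, 1 for ogt-1 and 0 for the other 3. None lay within the span of any of the 6 genes.

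The shape of coverage was compared over 40 bins of 250 bp centred on each gene's midpoint, in both replicates and in either orientation. Among the 15 pairs of the 6 genes, set-26 and set-9 were the most alike, with a mean absolute difference of 1.91 percentage points. The next pair, ogt-1 and set-26, differed by 8.41 points, and sin-3 differed from each of the others by 53.7 to 63.4 points. Replicate 1 had no peak in the window of sin-3, so its differences depend on that absence and do not describe shape alone. Among all other protein-coding genes more than 10 kb away, plc-4 was closest to ogt-1 (1.23 points), gpcp-2 to hda-3 (3.11) and K10D2.8 to sin-3 (3.42). The closest to athp-1, R10E4.7, still differed by 10.2 points. The likeness is of the whole 10 kb windows: over their own spans, K10D2.8 was covered to 0% in both replicates, and R10E4.7 to 0% by replicate 1 peaks and to 5.76% by replicate 2 peaks. eif-3.D was closest to set-26 (0.09), and 156 genes were tied at a difference of 0 with set-9, since any gene within an unbroken 10 kb of peak has the same shape.

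Other genes of histone-modifying complexes were also often under peaks. Of 49 such genes in 7 lists, 41 had a peak in replicate 1, 42 in replicate 2 and 37 in each, against 30.2%, 28.1% and 24.4% of all protein-coding genes, and 3 had none in either replicate. Their median length was 4247 bp, against 2006 bp over all protein-coding genes. The counts per list below are to be read against the same 24.4%. Their median coverage was 96.1% in replicate 1 and 74.6% in replicate 2, against 0% over all protein-coding genes in both. Of these genes 5 lie on X.

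Of the closest associates of SIN-3 and HDA-3, all 6 had a peak in each replicate. mrg-1 itself was covered to 100% in both. So were hda-1, the main class I deacetylase of the worm, and the histone-binding protein genes rba-1 and lin-53. hda-2, another class I deacetylase gene, was covered to 100% by replicate 1 peaks and to 98.3% by replicate 2 peaks. The least covered was arid-1, a gene of 15131 bp, which was covered to 36.2% by replicate 1 peaks and to 10.97% by replicate 2 peaks.

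Of the other deacetylases, 3 of 5 had a peak in each replicate, and these 3 ranged from hda-6 with 90.5% ± 13.4 to hda-11 with 45.4% ± 26.2 (SD, n = 2 each). hda-4, a class II deacetylase gene on X, and hda-5 had none in any list. Of the enzymes and partners of the sugar pathway around OGT-1, oga-1, the gene of the enzyme that removes the sugar, lies on X and was covered to 44.6% by replicate 1 peaks and to 0% by replicate 2 peaks. hcf-1, a conserved partner of OGT and of SET-26, was covered to 0% by replicate 1 peaks and to 81.0% by replicate 2 peaks.

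Of the NuRD, MEC and CoREST genes, 8 of 10 had a peak in each replicate, from mep-1 with 100% to spr-5 with 24.4% ± 20.0 (SD, n = 2). The other 2, lsd-1 and chd-3, are on X and had a peak in replicate 1 but not in replicate 2. All 10 genes listed under the NuA4/TIP60 acetyltransferase, a complex in which MRG15 proteins also work, had a peak in each replicate. The list also holds the acetyltransferase genes mys-2 and mys-4, which may not belong to the complex, so it is not a roll of its subunits. Among the 10 listed genes, gfl-1, ruvb-1 and ruvb-2 were covered to 100% in both replicates and ekl-4 least, at 31.0% ± 5.53 (SD, n = 2).

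Of the COMPASS genes, whose products methylate lysine 4 of histone H3, 4 of 6 had a peak in each replicate, led by dpy-30 at 100%. The catalytic subunit gene set-2 and wdr-5.1 resembled sin-3: they had no peak in replicate 1 and were covered to 99.1% and 100% in replicate 2. Of the other SET-domain genes, 6 of 10 had a peak in each replicate. set-4, set-17 and met-2 were covered to 100% in both, and set-30, on X, had no peak in any list. met-1 and set-1 had no peak in replicate 1 and were covered to 71.4% and 100% in replicate 2. The reverse held for set-32, covered to 100% by replicate 1 peaks and to 0% by replicate 2 peaks. In all, 5 of the 30 listed genes covered to at least 50% in replicate 2 (16.7%) had no peak in replicate 1, close to the 14.6% over all protein-coding genes. In the other direction, 3 of the 34 listed genes covered to at least 50% in replicate 1 (8.82%) had no peak in replicate 2. Over all protein-coding genes this was 10.6%.

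**Figure D5:**
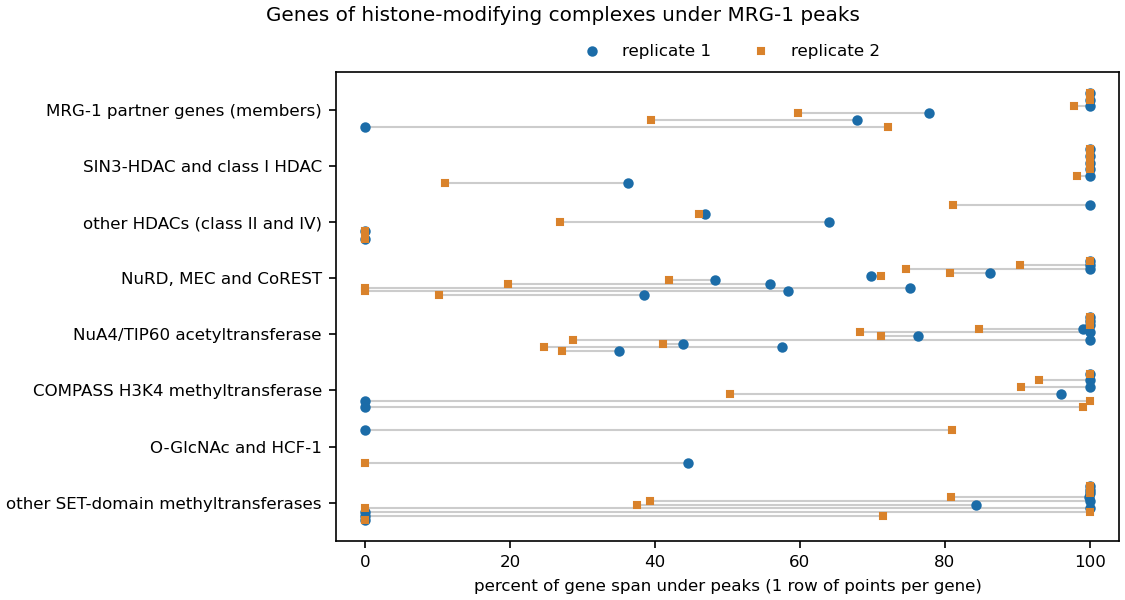
Percent of the gene span under peaks in replicate 1 (blue circles) and replicate 2 (orange squares) for the 6 partner genes and 49 genes in 7 lists, with 1 line per gene joining its replicates. Many points lie near 100%, and long lines mark genes such as sin-3, set-2, wdr-5.1 and hcf-1 that have a peak in replicate 2 only. Other genes have a peak in replicate 1 only.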

How the data were processed

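The submitters' processing notes name BWA and the ce10 build for the alignment. Per the file headers, peak positions are on WormBase WS220, and the source column names MACS for the replicate lists and MACS v2 for the series-wide list. For thresholds, input use and pooling no source used here says anything. The authors deposited a peak score whose definition the files do not give. It was used to rank peaks within a list.

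Gene spans came from a RefSeq table on WBcel235 without strand, so planned windows around the gene start and profiles on the gene's strand were replaced by gene ends and by profiles about the midpoint. Coverage is the share of a span's bases, in percent, that lie under any peak, and 1 bp counts as overlap. Coverage was checked against direct counting on simulated lists. The genes and lists were chosen with earlier results of these data known, so no test was made. Described by rule were the 6 genes, the 2 nearest protein-coding genes on each side, the genes of the SIN3 and sugar lists, the most and least covered genes of the other lists, and the gene most alike in shape. Genes named beyond these (dpt-1, sod-2, acs-4, hda-11, lsd-1, chd-3, mys-2, mys-4, wdr-5.1, met-1, set-1, set-32) were chosen after their values were seen. Alternatives moved gene spans by 200 bp, widened them, and used stricter overlaps or scores. Python 3.11.15, numpy 2.4.6, pandas 2.3.3 and matplotlib 3.10.9 were used.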

Additional observations from a re-analysis of the deposited data

How the results depend on the processing

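Moving gene spans by 200 bp either way changed no count of partner genes with a peak, nor did adding 500 bp on each side or using only 250 or 500 bp around the gene ends. With the top 50% of peaks by score, 3 partner genes had a peak in replicate 1 and 3 in both replicates, since the hda-3 and ogt-1 peaks score below the median of that list, and 22 of the 49 listed genes had one in both. For this setting, the share of all protein-coding genes with a peak in both replicates was not computed. Mean coverage of the partner genes was then 52.5%. It was 80.2% in the series-wide list, 84.2% without sin-3 and 64.3% without set-9 and set-26. With 1 replicate left out, it was 74.3% to 78.2%, and 5 to 6 partner genes had a peak. The percent of all protein-coding genes with a peak, 29.1% ± 1.498 over the replicates (SD, n = 2), was 28.1% to 30.2% with 1 replicate left out. It was 22.7% for the top 50% of peaks, 31.3% with 500 bp added, 21.4% with at least 50% of the span covered, 30.8% with 500 bp around the ends, 32.7% in the series-wide list, 39.8% among genes at least as long as hda-3 and 41.5% on chromosomes I, III and IV. The windows at gene ends, the long genes, the choice of chromosomes and the sets without sin-3 or the paralogs were added after the data were seen. No paired analysis was possible because neither input sample has values in these files. Windows around gene starts were not run, for want of strand. Depth is unknown.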

Other observations

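Within the span of glr-2, the gene below ogt-1, in the stretch that was bare in replicate 1, lie several small RNA genes. Among them are sls-2.5, sls-2.16 and sls-2.18, which encode SL2 RNAs, the spliced leaders joined to downstream messages of worm operons. The gene sls-2.5, 107 bp long and 5.3 kb below ogt-1, was covered to 100% by both the replicate 2 and the series-wide peaks. sls-2.16 was covered to 27.5% by replicate 2 peaks and to 11.9% by series-wide peaks, and sls-2.18 to 0% in every list. At these lengths the uncertainty between the builds exceeds the genes themselves.

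Below the peak region that ends in hda-3, replicate 2 had no peak over 277 kb, at chrI:11615204-11892420, the 19th longest of 3853 such stretches on its autosomes. Replicate 1 had 3 peaks that reached into this stretch and covered 1.23% of it. Among them was the hda-3 peak at chrI:11891281-11916623, whose lowest 1140 bp lay in the stretch. None of the 39 protein-coding genes wholly inside had a replicate 1 peak, and 2 had a series-wide peak.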
